A study of Mus musculus with 8 samples.

Results

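A set of 10 genes of NAD synthesis and consumption was followed in quadriceps muscle, and in none of them could a difference between mice with and without a subcutaneous tumour be shown. The genes were chosen by name: Nmrk1, Nmrk2, Nampt, Naprt, Nmnat1, Nmnat3, Nnmt, Parp1, Sirt1 and Cd38. All 10 of 10 were found, each on a single row, among 35494 gene symbols of the deposited table. The study compared wild-type (WT) male C57BL/6 mice from The Jackson Laboratory with MC38 cells, a mouse colon cancer line, injected under the skin (scMC38, 4 mice) and mice injected with an equal volume of PBS (control, 4 mice). Both groups were 8 weeks of age at the start, the dose was 1000000 cells, and quadriceps were collected after 28 days. RNA came from whole quadriceps, 1 library per mouse, so mRNA of fibres and of all other cells in the piece was measured together.

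NAD is the electron carrier of glycolysis and of mitochondrial oxidation, and it is also used up as a substrate. Muscle makes most of it by recycling nicotinamide: NAMPT turns nicotinamide into NMN, the riboside kinases NMRK1 and NMRK2 make NMN from nicotinamide riboside, and the NMNAT enzymes turn NMN into NAD. NAPRT opens a separate route from nicotinic acid. Sirtuins, poly(ADP-ribose) polymerases and CD38 split NAD and release nicotinamide, and NNMT methylates nicotinamide so that it leaves the cycle. NMRK2 is known as the riboside kinase enriched in skeletal and heart muscle, whereas NMRK1 is found in many tissues.

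Total counts were between 50465191 and 62105583 per library. The muscle label was borne out by 10 fibre genes such as Acta1 and Ckm, whose summed level lay between 115497 and 164131 CPM (counts per 1000000, scaled between libraries by the TMM method). The sum hides wide differences in single fibre genes. Myh2 ran from 9.43 to 2296 CPM in controls and from 84.8 to 561 CPM in scMC38. Mb ran from 192 to 4409 CPM in controls and from 650 to 1401 CPM in scMC38. Libraries scMC38 1 and scMC38 3 stood apart by 11 neutrophil and granulocyte precursor genes (summed 460 and 4167 CPM, against 0.856 to 32.1 CPM in the other 6) and by 6 bone genes (75.4 and 583 CPM against 5.48 to 20.7 CPM). Control 4 stood apart by 5 adipocyte genes, given with Nnmt. It also had the lowest Myh2 and Mb of all libraries. Its Myh2 was 9.43 CPM against 529 to 2296 CPM in the other controls, and its Mb 192 against 904 to 4409 CPM. All 10 macrophage genes had their highest control level in control 4 (summed 160 CPM, against 117 to 138 CPM in the other controls). The share of counts from mitochondrially encoded genes was 24.3% and 29.7% in controls 1 and 2 and 14.4% to 18.9% elsewhere. In whole muscle, fewer cells of a type and less RNA per cell cannot be told apart.

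The promoters of both riboside kinases are shown because these enzymes do the same reaction and yet differed widely in level and spread here. Each line gives the 250 bases before the start site, 5′ to 3′ on the gene's strand, from RefSeq on GRCm38.p6, an earlier build than the GRCm39 named for the counts. Capitals mark TATAAA (searched on both strands) and the E-box core CANNTG (the same on both strands).
Nmrk1: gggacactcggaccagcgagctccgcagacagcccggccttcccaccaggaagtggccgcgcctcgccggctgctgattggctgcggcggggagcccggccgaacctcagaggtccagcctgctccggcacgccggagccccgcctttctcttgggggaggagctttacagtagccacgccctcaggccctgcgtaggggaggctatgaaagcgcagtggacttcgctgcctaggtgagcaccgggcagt
Nmrk2: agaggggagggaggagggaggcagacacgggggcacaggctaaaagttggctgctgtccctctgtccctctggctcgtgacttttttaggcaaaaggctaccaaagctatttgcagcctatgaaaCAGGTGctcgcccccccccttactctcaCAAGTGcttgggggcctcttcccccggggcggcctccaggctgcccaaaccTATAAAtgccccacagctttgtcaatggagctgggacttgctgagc
The Nmrk1 window (chr19:18631766-18632015, plus strand) held neither motif and 21 CG dinucleotides. The Nmrk2 window (chr10:81202038-81202287, minus strand) held TATAAA once, starting 46 bases before the start site, CANNTG at 125 and 97 bases before it, and 5 CG dinucleotides. Over all 32851 promoter windows of this length, 12.4% held TATAAA, 66.2% held CANNTG and the median was 6 CG dinucleotides. The matches describe letters only. Promoters of 8 of the 10 genes were in the RefSeq table.

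Per kilobase of exon, Nmrk2 and Nampt were the most abundant of the 10. In controls Nmrk2 averaged 53.4 ± 32.6 and Nampt 37.3 ± 3.37 CPM per kb (SD, n = 4), which placed them at the 94.3rd and 91.8th percentile of the 13538 tested genes with a known length. Their ranges overlapped, and in scMC38 the order was turned, with Nampt at 37.4 ± 4.89 and Nmrk2 at 37.2 ± 14.3 CPM per kb. Parp1 followed at 17.6 ± 2.77 CPM per kb in controls, then Nmnat1 at 7.59 ± 0.738 and Nmnat3 at 6.70 ± 0.756 CPM per kb. These last neighbours overlapped in range, although Nmnat1 was above Nmnat3 in all 4 controls. Lower still lay Cd38 (2.46 ± 0.453), Nnmt (2.25 ± 1.75), Sirt1 (2.04 ± 0.102), Nmrk1 (1.96 ± 0.123) and Naprt (1.54 ± 0.383 CPM per kb), each overlapping the next. Exon lengths came from an annotation of GRCm38, and with the longest coding transcript in place of all exons Sirt1 and Nmrk1 changed places.

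**Figure D1:**
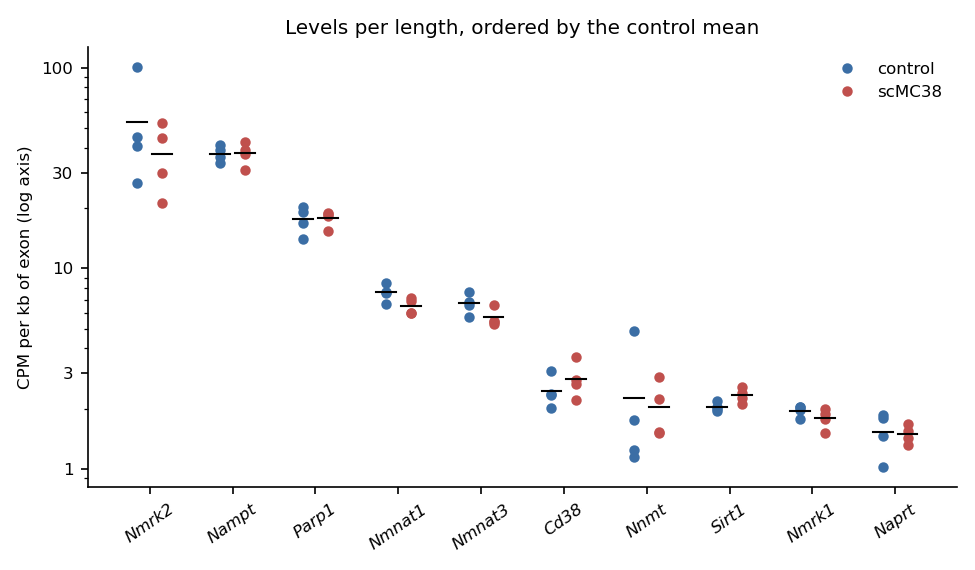
Level per kilobase of exon (log axis) of the 10 NAD genes, 1 point per library, with the group mean as a line, ordered by the control mean. Nmrk2 and Nampt lie above the rest, and Nmrk2 and Nnmt have the widest spread among controls.

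At an adjusted p under 0.05, edgeR's quasi-likelihood test called 0 of the 10 genes, where it called 1.20% of all 14112 genes tested. All 10 passed the filter on low counts. The 4 scMC38 libraries did not lie wholly above or below the 4 controls for any of the 10, against 13.3% of all genes. Nmnat1 was the 1 gene with an unadjusted p under 0.05, against 21.0% of all genes. DESeq2 also called 0 of the 10, where it called 9.86% of the genes it adjusted. The median log2 fold change of the 10 was -0.0835, with 4 above and 6 below 0, beside 0.00087 over all genes. The 95% interval of the log2 fold change stayed within a 2-fold change either way for 8 of the 10, as it did for 74.3% of all genes. Nmrk2 and Nnmt were the exceptions.

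**Figure D2:**
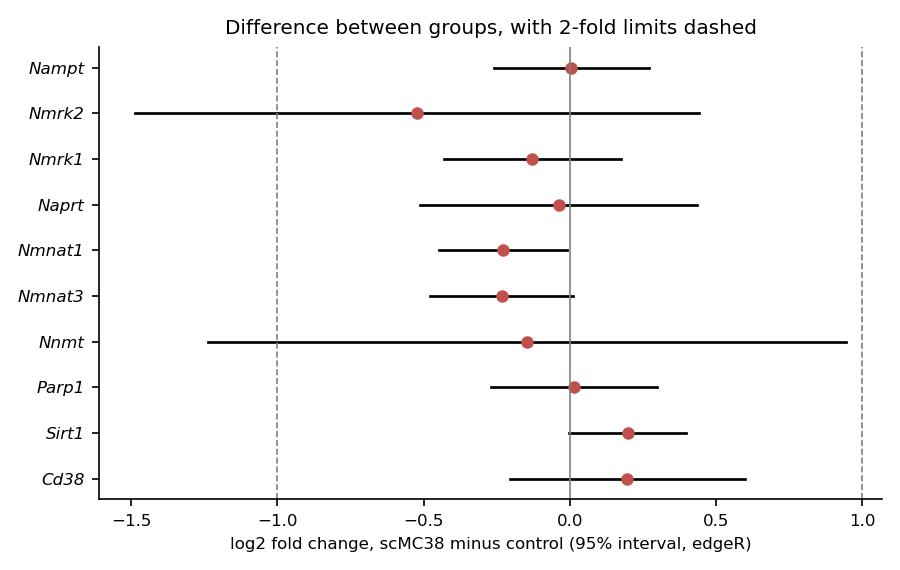
Log2 fold change of each NAD gene, scMC38 minus control, with its 95% interval from edgeR (4 libraries per group). The intervals of Nmrk2 and Nnmt cross the dashed line of a 2-fold lower level, and the other 8 lie within both dashed lines.

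Nampt, the rate-limiting enzyme of nicotinamide salvage, averaged 169 ± 15.3 CPM in controls and 169.5 ± 22.1 CPM in scMC38 (SD, n = 4). It was measured at 162, 176, 152 and 186 CPM in controls 1 to 4 and at 176, 169, 140 and 193 CPM in scMC38 1 to 4. The lowest and the highest library were both scMC38, so the groups overlapped throughout. Its log2 fold change was 0.00496 (SE 0.12, adjusted p = 0.986), and the 95% interval from -0.26 to 0.27 leaves out a change as large as 2-fold in either direction.

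Nmrk2 had the largest fold change of the 10 by size, and it depended most on a single control. Its level was 84.0, 75.7, 49.4 and 187 CPM in controls 1 to 4 and 98.4, 82.5, 55.7 and 39.1 CPM in scMC38 1 to 4. Control 4 lay far above the other 7 libraries, and scMC38 4 was the lowest. The log2 fold change was -0.52 (SE 0.42, 95% interval -1.49 to 0.44, adjusted p = 0.504). Without control 4 it was -0.0175 (adjusted p = 0.980), and without scMC38 4 it was -0.33 (adjusted p = 0.701). Without control 3 it was -0.75 (adjusted p = 0.374), and without control 1 and 2 together it was -0.79 (adjusted p = 0.602). The spread of Nmrk2 within groups (SD 0.71 on the log2 scale) was wider than that of 90.8% of tested genes or equal to it, whereas the spread of Nampt (0.17) ranked at 36.7%. Its counts ran from 1987 to 10275 per library.

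Nmrk1 was low and even. It ranged from 3.65 to 4.20 CPM in controls and from 3.09 to 4.10 CPM in scMC38, and edgeR's log2 fold change was -0.13 (SE 0.13, adjusted p = 0.608). It was -0.054 without scMC38 3, the lowest library, and between -0.19 and -0.11 with any other library left out. Reads of Nmrk2 outnumbered those of Nmrk1 in every library, by 12.2 to 44.8 times in controls and by 9.53 to 25.4 times in scMC38. A ratio of counts within a library does not depend on scaling between libraries. The mean log2 ratio of Nmrk2 to Nmrk1 was 4.45 ± 0.775 in controls and 4.15 ± 0.631 in scMC38 (SD, n = 4, two-sided exact permutation p = 0.543).

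The balance of the riboside kinase to the salvage enzyme was also not shown to differ. Nmrk2 counts were 0.518, 0.431, 0.326 and 1.00 times those of Nampt in controls 1 to 4 and 0.559, 0.489, 0.398 and 0.203 times in scMC38 1 to 4. The difference in mean log2 ratio was -0.43 (exact permutation p = 0.429), and it was -0.12 without control 4. It was also smaller in size without scMC38 4, which had the lowest log2 ratio (-2.30). With any 1 library left out it lay between -0.66 and -0.12. Of 4 such ratios tested, all had an adjusted p of 1. The smallest p that 4 against 4 libraries can give is 0.0286.

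Naprt, which starts the route from nicotinic acid, was the lowest of the 10 per kilobase. It ranged from 1.95 to 3.54 CPM in controls and from 2.52 to 3.19 CPM in scMC38, whose range lay within that of the controls. Its log2 fold change was -0.0384 (SE 0.21, adjusted p = 0.938), and the sign turned to 0.0799 when libraries were scaled by total counts alone.

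**Figure D3:**
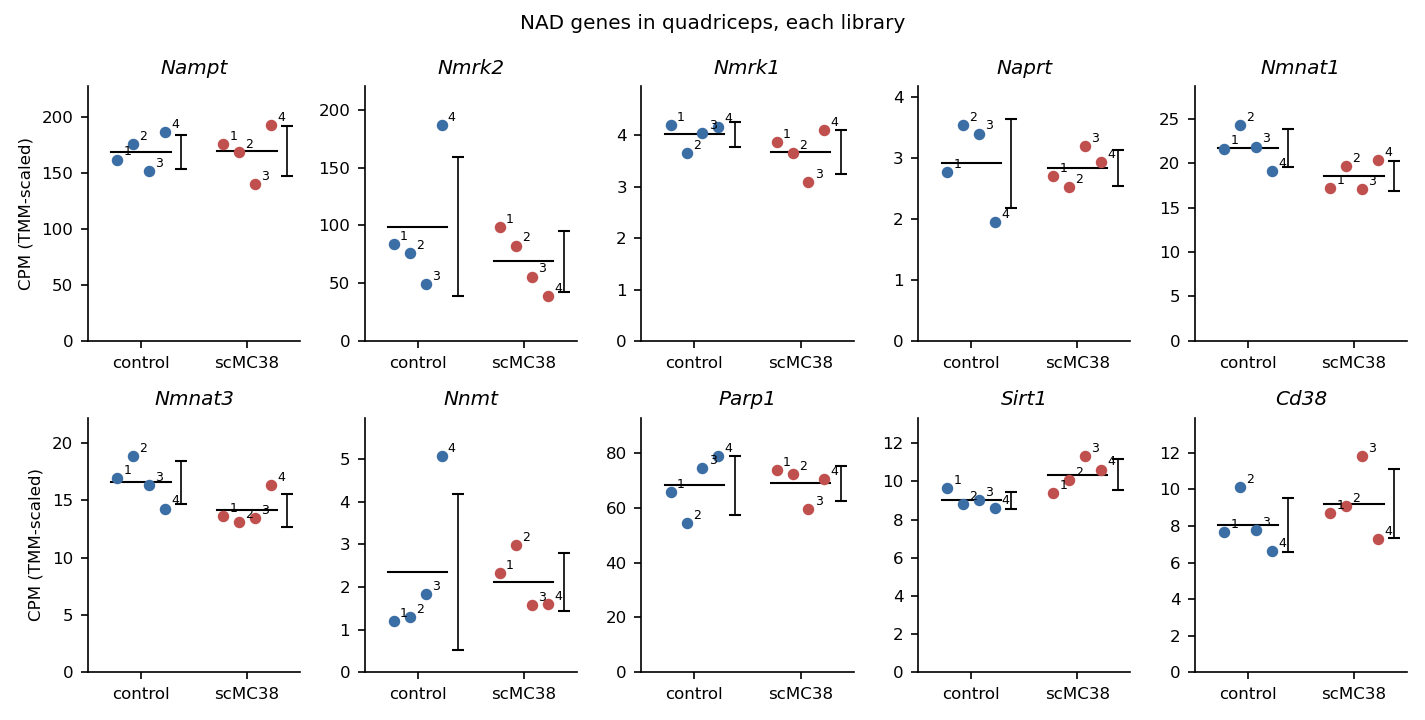
CPM of the 10 NAD genes in each library, numbered 1 to 4 within its group, with the group mean as a line and the SD as an error bar to its right. The groups overlap in every panel, and control 4 is the highest library for Nmrk2, Nnmt and Parp1.

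The NMNAT enzymes finish NAD. Nmnat1, the nuclear enzyme, had the smallest p of the 10, followed by Sirt1 and Nmnat3. It was measured at 21.6, 24.3, 21.9 and 19.1 CPM in controls 1 to 4 and at 17.2, 19.6, 17.1 and 20.3 CPM in scMC38 1 to 4. Only control 4 lay below any scMC38 library. The log2 fold change was -0.23 (SE 0.0963, 95% interval -0.45 to -0.00878), with an adjusted p of 0.223. Nmnat3, the form assigned to mitochondria, was at 16.9, 18.8, 16.3 and 14.3 CPM in controls 1 to 4 and at 13.6, 13.1, 13.4 and 16.3 CPM in scMC38 1 to 4. Here scMC38 4 lay above control 4 and just below control 3, and the other 3 lay below every control. Its log2 fold change was -0.23 (SE 0.11, adjusted p = 0.256).

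Both values moved in either direction with the libraries left out. Without control 4 the log2 fold change was -0.28 for Nmnat1 and -0.30 for Nmnat3 (edgeR adjusted p = 0.159 and 0.167). Without scMC38 4 it was -0.28 and -0.31. The values were smaller in size with libraries scaled by total counts alone (-0.12 for Nmnat1 and -0.13 for Nmnat3). They were also smaller in size when pairs of libraries were left out. Without control 1 and 2, the pair with the highest mitochondrially encoded share, the log2 fold change was -0.15 for Nmnat1 and -0.13 for Nmnat3. Without scMC38 1 and 3, the pair with marrow and bone mRNA, it was -0.10 and -0.15. The part of either feature in the result was not tested. The mean log2 ratio of Nmnat3 to Nmnat1 was -0.39 ± 0.0352 in controls and -0.40 ± 0.124 in scMC38 (SD, n = 4, exact permutation p = 1). The wider spread in scMC38 came with scMC38 2 at -0.58, and without it the difference was 0.0573 (exact permutation p = 0.0571, adjusted p = 0.229).

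Nnmt, which removes nicotinamide by methylation and is known to be abundant in fat and liver, was highest in the libraries with the most adipocyte mRNA. It was measured at 1.21, 1.29, 1.84 and 5.06 CPM in controls 1 to 4 and at 2.33, 2.99, 1.58 and 1.60 CPM in scMC38 1 to 4. The summed level of 5 adipocyte genes (Adipoq, Plin1, Cidec, Lep and Cfd) was 83.4, 52.7, 107 and 674 CPM in the same controls and 214, 406, 159 and 127 CPM in the same scMC38 libraries. Control 4, scMC38 2 and scMC38 1 were, in this order, the highest 3 in both. All 5 adipocyte genes had their highest control level in control 4, and none was at 0 in any library. The same control was also the highest of its group for all 10 macrophage genes.

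The group difference of Nnmt depended on control 4. With all libraries the log2 fold change was -0.15 (SE 0.48, 95% interval -1.24 to 0.95, adjusted p = 0.888). Without control 4 it was 0.55 (adjusted p = 0.326), and without control 1 and 2 together it was -0.71 (adjusted p = 0.563). Its counts ran from 70 to 278 per library. The part of fat in these values was not tested. The mean log2 ratio of Nnmt to Nampt was -6.42 ± 0.882 in controls and -6.36 ± 0.456 in scMC38 (exact permutation p = 0.857).

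**Figure D4:**
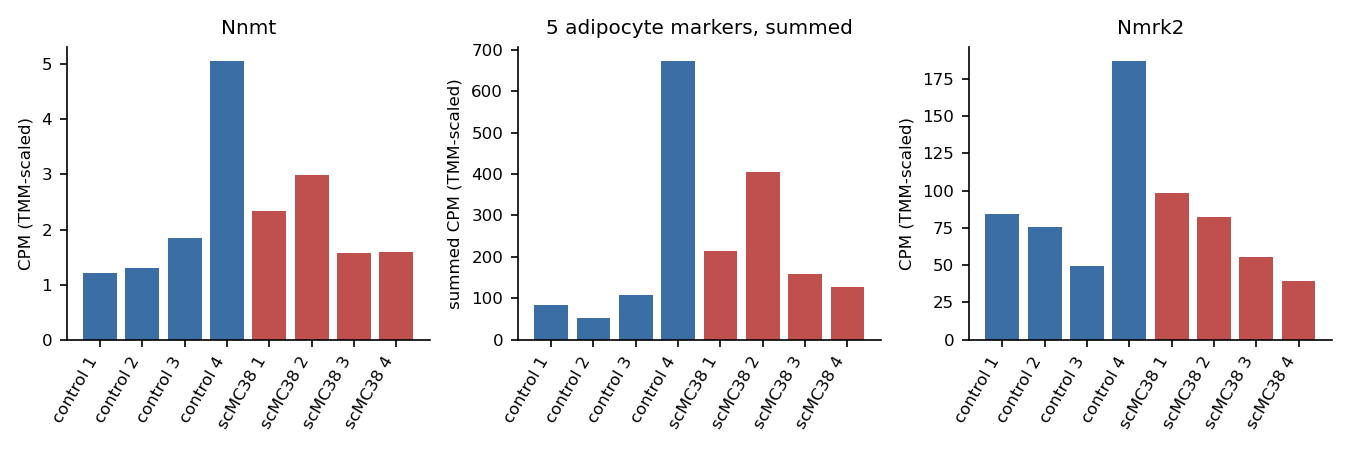
Level of Nnmt, the summed level of 5 adipocyte genes and the level of Nmrk2 in each library (TMM-scaled CPM, bars from 0, controls in blue and scMC38 in red). Control 4 is the highest in all 3 panels, while Nmrk2 does not otherwise follow the order of the adipocyte genes.

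Of the 3 NAD consumers among the 10 genes, Parp1 had the highest level per kilobase and Sirt1 the smallest spread within groups. Parp1, the DNA damage-activated polymerase, was at 65.6, 54.3, 74.3 and 78.6 CPM in controls 1 to 4 and at 73.5, 72.1, 59.5 and 70.3 CPM in scMC38 1 to 4. The scMC38 range lay within that of the controls, and the log2 fold change was 0.0138 (SE 0.13, 95% interval -0.27 to 0.30, adjusted p = 0.964). Sirt1, a nuclear deacetylase that depends on NAD, was at 9.64, 8.80, 9.02 and 8.59 CPM in controls and at 9.38, 10.1, 11.3 and 10.6 CPM in scMC38. Of the scMC38 libraries, 3 were above all controls, and scMC38 1 was below control 1. The log2 fold change was 0.20 (SE 0.0881, 95% interval just below 0 to 0.40, adjusted p = 0.242). Its spread within groups (SD 0.0952 on the log2 scale) ranked at 10.1% of tested genes.

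Cd38, an NAD glycohydrolase of immune and endothelial cells, was at 7.65, 10.1, 7.78 and 6.63 CPM in controls 1 to 4 and at 8.70, 9.08, 11.8 and 7.27 CPM in scMC38 1 to 4. Its highest level was in scMC38 3, which also had the highest sum of 10 macrophage genes. That sum was 575 CPM, against 117 to 160 CPM in controls and 130 to 409 CPM in the other scMC38 libraries. Lyz2 alone gave 374 CPM of it, and Adgre1, Cd14, Mrc1, C1qa and C1qb were higher in scMC38 1. Among controls the highest macrophage sum came with the lowest Cd38, both in control 4. The summed level of 6 endothelial genes was 414, 561, 344 and 325 CPM in controls 1 to 4. In scMC38 1 to 4 it was 264, 316, 440 and 362 CPM. Within each group the highest library for these genes was also the highest for Cd38, but the others came in a different order. The log2 fold change of Cd38 was 0.20 (SE 0.18, adjusted p = 0.549) and 0.0446 without scMC38 1 and 3. It was 0.0506 without scMC38 3 alone and 0.32 without control 2 (adjusted p = 0.366). The part of immune and endothelial cells in these values was not tested.

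Beyond these, 63 other genes of NAD metabolism were listed, of which 55 passed the filter. EdgeR called 0 of the 55, against 1.20% of all genes, with 12 at an unadjusted p under 0.05 (7 higher and 5 lower), against 21.0% of all genes. Their median log2 fold change was -0.0257, with 27 above and 28 below 0. DESeq2, with its 9.86% over all genes, called 3 of the list higher: Bst1, Adprs and Foxo3. Groups did not overlap for 5 of the 55, where 13.3% of all genes did not: Slc12a8, Tnks, Adprs and Bst1 were higher in all scMC38 libraries, and Parp3 was lower. Tnks and Parp3 are named because of this, after their values were seen.

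The kynurenine route, which makes NAD from tryptophan chiefly in liver, was measured at low level in part. Of its 12 genes 7 did not pass the filter, among them Tdo2, Ido1, Kynu and Haao, and none of these reached 1 CPM in any library. The other 5, Kmo, Kyat1, Kyat3, Afmid and Qprt, were tested. The 2 tested genes with the smallest p were Kmo (log2 fold change 0.65, adjusted p = 0.383) and Kyat1 (-0.23, adjusted p = 0.385). Among other genes of synthesis and precursor handling, Slc12a8, described as an NMN transporter, was below 1 CPM in every library (0.91, adjusted p = 0.156). Nt5e, an ectoenzyme that dephosphorylates NMN and AMP, stood at 0.57 (adjusted p = 0.230), and at 0.25 without scMC38 1 and 3. The mitochondrial NAD kinase Nadk2 (0.24, adjusted p = 0.254) and the NADH pyrophosphatase Nudt12 (-0.19, adjusted p = 0.330) had the smallest p of 8 genes for NADP, NAD import and repair. Nnt, the mitochondrial transhydrogenase, is known to be defective in the C57BL/6J substrain. The labels give C57BL/6 without a substrain, and gene counts cannot show a lost exon. Nnt mRNA was present at 6.79 to 35.6 CPM in controls and at 11.2 to 20.1 CPM in scMC38, and it is named after its values were seen.

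The mitochondrial sirtuins Sirt3 and Sirt4 had the smallest p of 6 other sirtuins. Sirt3 was at 16.5, 23.0, 12.1 and 9.76 CPM in controls 1 to 4 and between 9.67 and 11.3 CPM in scMC38 (-0.56, SE 0.24, adjusted p = 0.223). Sirt4 was at 7.32, 8.49, 6.18 and 5.26 CPM in controls and between 4.99 and 5.67 CPM in scMC38 (-0.37, SE 0.15, adjusted p = 0.219). For both, controls 1 and 2 were the high libraries, the same pair that held the most mitochondrially encoded counts. Without them the log2 fold change was -0.0849 for Sirt3 and -0.12 for Sirt4. Without control 4, the lowest control for both, it was -0.73 for Sirt3 and -0.47 for Sirt4 (edgeR adjusted p = 0.117 and 0.1245).

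Of 15 PARP family and ADP-ribose genes, Adprs came nearest to a call. Adprs, which encodes the hydrolase ARH3 that removes ADP-ribose from serine, was at 6.40, 7.01, 7.12 and 7.92 CPM in controls 1 to 4 and at 9.09, 9.20, 10.4 and 9.63 CPM in scMC38 1 to 4. Every scMC38 library lay above every control, and the log2 fold change was 0.43 (SE 0.0966, edgeR adjusted p = 0.0748, DESeq2 adjusted p = 0.00402). It was 0.42 without scMC38 1 and 3 and 0.34 without control 1 and 2. Parp8 stood at -0.26 (adjusted p = 0.166), Parp3 at -0.22 (adjusted p = 0.322) and the tankyrase gene Tnks at 0.31 (adjusted p = 0.170). Parp3 was at -0.11 without scMC38 3, and Tnks at 0.16 without control 1 and 2.

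Bst1, a relative of Cd38 known from marrow stromal and myeloid cells, had the widest difference on the list. It was at 0.268, 0.591, 0.240 and 0.401 CPM in controls 1 to 4 and at 2.40, 1.17, 6.05 and 0.827 CPM in scMC38 1 to 4. The highest libraries, scMC38 3 and scMC38 1, were those with the neutrophil and bone mRNA. The log2 fold change was 2.80 (SE 0.66, edgeR adjusted p = 0.0812, DESeq2 adjusted p = 0.000446) and 1.43 without scMC38 1 and 3. The part of those cells was not tested. The aldehyde oxidase gene Aox3 was low (0.98, adjusted p = 0.358).

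Of 10 regulators linked to these genes, Foxo3 and Ppard had the smallest p. Foxo3, a transcription factor of the fasting and atrophy response, was at 34.7, 32.6, 53.8 and 33.1 CPM in controls 1 to 4 and at 59.1, 53.0, 63.7 and 69.5 CPM in scMC38 1 to 4. Only control 3 reached the scMC38 range. Its log2 fold change was 0.67 (SE 0.17, edgeR adjusted p = 0.0924, DESeq2 adjusted p = 0.00816), and without control 3 edgeR called it higher (0.87, adjusted p = 0.0484). With any 1 library left out it lay between 0.60 and 0.87 (edgeR adjusted p from 0.0484 to 0.242). Ppard, a nuclear receptor of fatty acid oxidation, stood at 0.31 (adjusted p = 0.158).

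**Figure D5:**
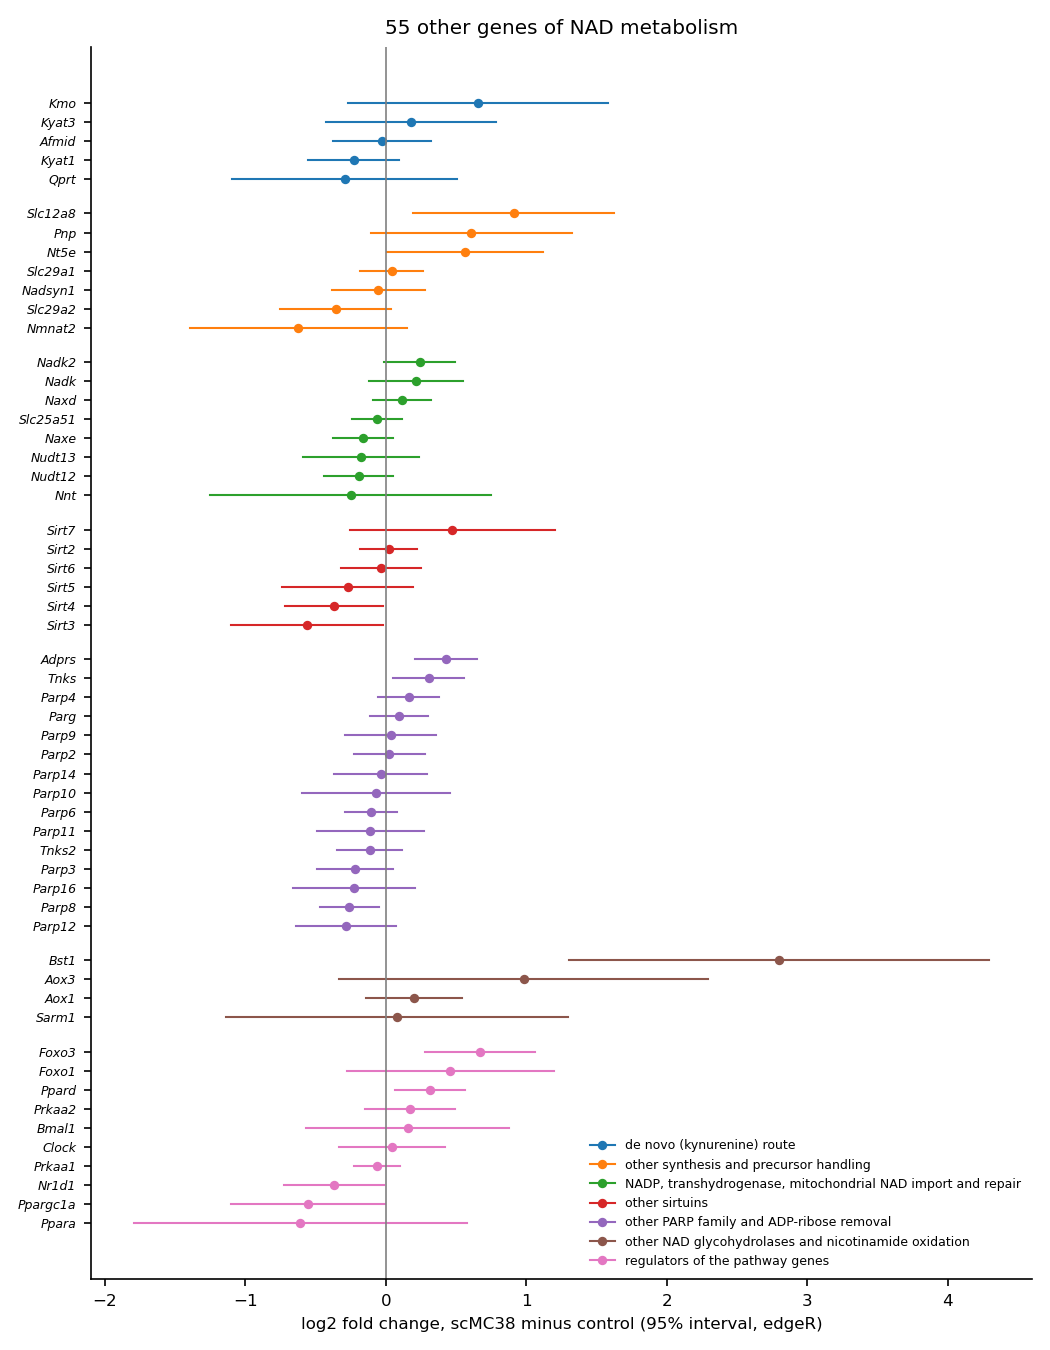
Log2 fold change, scMC38 minus control, with 95% intervals from edgeR, of the 55 tested genes of the wider NAD list, coloured by role. Of the points 27 lie above 0 and 28 below, and Bst1 is farthest from it at 2.80.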

How the data were processed

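RNA of 8 quadriceps was isolated with the RNeasy Mini Kit and sequenced from a Universal Plus mRNA-seq preparation, per the labels' protocols. Of software, the submitters' processing notes list Salmon 1.10.3, which estimates transcript abundance, with fastp 1.0.1, MultiQC 1.30 and FastQC 0.12.1, R 4.4.3, and GRCm39 as the build. Strandedness, annotation release and the way from transcripts to genes were not given in the sources used here. Without strand, overlapping antisense genes share reads. The authors deposited 1 table of estimated counts by gene symbol that carry no depth scaling. Whether transcript length entered these counts is not known. Rows without a symbol (144, at most 0.00403% of counts) were left out, rows of a shared symbol were summed and counts were rounded.

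For the group difference, edgeR 4.0.16 (R 4.3.3) was run with filterByExpr (minimum count 10), TMM scaling and its robust quasi-likelihood F test over 14112 genes, with Benjamini-Hochberg adjustment and a threshold of 0.05. The code was tested on simulated counts with known changes and less spread than these data, which checks the code and not the fit to these libraries. The standard error is the one implied by F. CPM values are TMM-scaled, and the within-group SD is of log2 CPM with a prior count of 2. Ratios of counts carry a pseudocount of 0.5 and were compared by two-sided exact permutation over 70 assignments of libraries, adjusted over 4 ratios. Alternatives were DESeq2 1.42.0, other scalings and filters, leaving out mitochondrially encoded genes, a replicate block and leaving out libraries. The labels do not say whether mice with the same number were paired. EdgeR's p-values weigh a difference between groups against the spread between mice, and do not measure that spread. The members and lists were chosen with earlier results of these data known. Named are all 10 members and, of each group of the wider list, the 2 genes with the smallest p.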

Additional observations from a re-analysis of the deposited data

Results flagged for a closer look

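A value was set apart when its gap to the nearest library exceeded the critical value of Dixon's test for its group of 4, which chance does in about 1 in 20 groups. Here 5 of 62 groups met this. Nnmt in control 4 stood at 5.06 CPM, above the other controls at 1.21 to 1.84 CPM. Nmnat3 in scMC38 4 was at 16.3 CPM, above the other scMC38 libraries at 13.1 to 13.6 CPM. Kyat1, a kynurenine aminotransferase gene, was at 15.1 CPM in the same library and at 11.7 CPM in each of the other 3. Foxo3 in control 3 was at 53.8 CPM, with the other controls at 32.6 to 34.7 CPM. The log2 ratio of Nmnat3 to Nmnat1 was -0.58 in scMC38 2 and -0.35 to -0.32 in the other scMC38 libraries.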

How the results depend on the processing

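None of the 10 NAD genes was called as reported or under any of 17 alternatives (170 values, smallest adjusted p = 0.159). Over all genes edgeR called 170, with 267 by total counts, which moved the median of all genes by 0.11 (216 higher and 51 lower, against 104 and 66), 1505 by DESeq2, 1 with the replicate block, 64 without scMC38 1 and 3, 0 without control 1 and 2 (1605 at an unadjusted p under 0.05), and 2 (without control 1) to 99 (without control 4) with 1 library left out. Of the wider list, 1 gene was called by total counts (Ppard), 3 by DESeq2, and 0 to 1 with 1 library left out. The replicate block changed no call among the 10 genes. Same-numbered libraries deviated from their group means with correlations of -0.11, -0.28, -0.00583 and -0.25, so the numbers were not taken to pair the mice.

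Of the 10 genes, 6 kept their sign throughout. Nampt was -0.0091 without mitochondrially encoded genes, -0.000197 with the replicate block, -0.00625 without control 1 and 2, and -0.0648 to 0.0855 with 1 library left out. Naprt was 0.0799 by total counts, 0.0739 without control 1 and 2, and -0.19 to 0.0677 with 1 left out. Nnmt was 0.0875 with the replicate block and -0.37 to 0.55 with 1 left out. Parp1 was -0.16 without control 1 and 2 and -0.0823 to 0.0896 with 1 left out. Nnt was 0.68 without control 1 and 2 and -0.53 to 0.26 with 1 left out. The difference in log2 ratio ranged with 1 left out from -0.66 to -0.12 for Nmrk2 to Nampt, -0.58 to 0.0465 for Nmrk2 to Nmrk1, -0.15 to 0.48 for Nnmt to Nampt and -0.0293 to 0.0573 for Nmnat3 to Nmnat1. Without control 1 and 2 it was -0.58 for Nnmt to Nampt and 0.0257 for Nmnat3 to Nmnat1. The cause of these changes was not tested. The analyses without 2 libraries were chosen with the data known.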
